A study of Mus musculus with 12 samples.

Results

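Notch receptors (Notch1, Notch2, Notch3 and Notch4), the ligand gene Jag1 and the target genes Hes1, Hey1, Hey2 and Heyl were read in cultured mouse cardiac fibroblasts. The platform's probe annotation names 12 of the 45281 probes for these 9 genes, of 19057 genes with a probe. Probes were assigned by gene symbol alone, but the genes were chosen with earlier results of these data known. Shares over all tested genes are therefore set beside the members as description. A Notch receptor is bound by a Jagged or Delta-like ligand on a neighbouring cell, is then cut by ADAM proteases and by gamma-secretase, and its freed intracellular part enters the nucleus and joins the DNA-binding protein RBPJ and a Mastermind co-activator. That complex switches on the HES and HEY genes, which encode basic helix-loop-helix repressors. In the heart the pathway is best known from endothelial cells and from the smooth muscle cells and pericytes of vessels, where Notch3 is prominent.

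The cells were primary cardiac fibroblasts of female C57/BL6 mice aged 10 to 16 weeks, grown in medium with 10% fetal calf serum in all groups. RNA was hybridised to 12 Illumina bead arrays, 4 from cultures kept 48 h with CCN2 at 200 nmol/L, 4 from cultures kept 48 h with GDF15 at 500 nmol/L, and 4 from control cultures without either protein. CCN2 is a secreted matricellular protein also called connective tissue growth factor, and GDF15 is a secreted cytokine of the TGF-beta superfamily. The control labels give no time, but the treatment protocol states the same time for cultures with and without the proteins. No label says if the 4 arrays of a group stand for different cultures or mice, and a p-value here therefore covers array-to-array spread alone, possibly of technical origin.

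Between arrays of the same group, correlations of normalized values were 0.987 to 0.996. A probe counts as detected on an array where its detection p-value, taken against negative control probes, is under 0.05. That held for 18009 to 18979 probes on the CCN2 arrays, 19004 to 19481 on the GDF15 arrays and 19211 to 19691 on the control arrays. The CCN2 arrays were dimmer before normalization, with a 75 percent quantile of the signal of 76.4 to 79.1, against 76.9 to 96.2 on the GDF15 arrays and 82.5 to 94.4 on the control arrays. The number of arrays limits the precision of every comparison. All 13 fibroblast markers were detected on all arrays. Markers of endothelial cells, macrophages and smooth muscle were detected as well. Of the 10 cardiomyocyte markers with a probe, Actc1, Nppa, Actn2 and Myl2 were detected on all GDF15 and control arrays, and Ryr2 was detected on no array.

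Before the values, the promoters of Hey2 and Notch3 are shown, because these fell after both treatments and have an entry in the RefSeq promoter table. The table (GRCm38.p6, from 250 bases before to 50 bases after a gene's start) also holds Notch1, Notch2, Notch4 and Jag1. Capitals mark the RBPJ motif GTGGGAA or its reverse complement TTCCCAC. The Hey2 window is chr10:30842734-30843033 and the Notch3 window is chr17:32166841-32167140, both on the minus strand and written 5′ to 3′.
Hey2: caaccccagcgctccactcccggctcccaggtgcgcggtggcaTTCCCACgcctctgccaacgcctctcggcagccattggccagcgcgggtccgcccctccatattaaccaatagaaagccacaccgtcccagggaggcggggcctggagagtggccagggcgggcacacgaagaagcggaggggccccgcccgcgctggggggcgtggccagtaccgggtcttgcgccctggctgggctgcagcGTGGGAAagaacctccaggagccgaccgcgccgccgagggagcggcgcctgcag
Notch3: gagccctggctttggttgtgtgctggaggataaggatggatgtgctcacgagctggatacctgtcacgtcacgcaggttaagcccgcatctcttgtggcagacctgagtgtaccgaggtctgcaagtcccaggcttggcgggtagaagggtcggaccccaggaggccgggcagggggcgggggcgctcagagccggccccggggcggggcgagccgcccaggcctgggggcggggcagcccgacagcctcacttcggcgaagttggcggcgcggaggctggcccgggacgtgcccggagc
Hey2, whose product acts as a transcriptional repressor, was the only member with the motif among the 6 searched, and its window held it 2 times, beginning 207 and 4 bases before the start. Of all 32851 promoter windows of 300 bases, 6.38% held the motif at least 1 time on either strand and 0.256% held it 2 or more times. The shorter core TGGGAA, which lies inside the longer motif, stood in 25.6% of all windows and in no other member's window. A match is a description of letters and not of a bound site.

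CCN2 against control asked which members differ in cultures given CCN2. In all counts of genes, a gene is represented by its brightest tested probe. Of the 8 members bright enough to test, 7 fell: the receptors Notch1 and Notch3, the ligand gene Jag1 and all 4 HES and HEY genes. Of these, Hey2 and Heyl were detected on no CCN2 array. They entered the tests only through their GDF15 and control arrays, which favours a fall. None rose by limma, nor at an unadjusted p under 0.05, and Notch4 did not pass the test. Among the members detected in both groups, the largest differences were those of Notch3, 9.18-fold lower in CCN2 cultures, and of Hes1, 5.66-fold lower. Hey2 and Heyl have only a lower bound and cannot be ranked. The background was high, since 30.2% of the 11018 tested genes fell, 25.7% rose and 55.9% changed in either direction after CCN2. The median log2 difference was -1.80 over the 8 tested members, or -1.47 with undetected genes at their bound, and -0.023 over all tested genes. Median scaling in place of quantile normalization kept the 7 decreases and called Notch4 lower as well. It moved the median of all tested probes by -0.17 on the log2 scale and the share of rising probes among those changed to 26.7%, against 48.6% with quantile normalization.

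GDF15 against control asked the same of cultures given GDF15, with the same control arrays. Here Notch3, Hey1, Hey2 and Heyl fell, while Notch1, Notch4, Jag1 and Hes1 did not pass the test. Among all tested genes 12.7% fell, 9.76% rose and 22.4% changed. The median log2 difference was -0.38 over the 8 tested members, against -0.018 over all tested genes. Under median scaling 34.5% of the changed probes rose, against 46.7% with quantile normalization, and the calls of the members were the same.

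**Figure D1:**
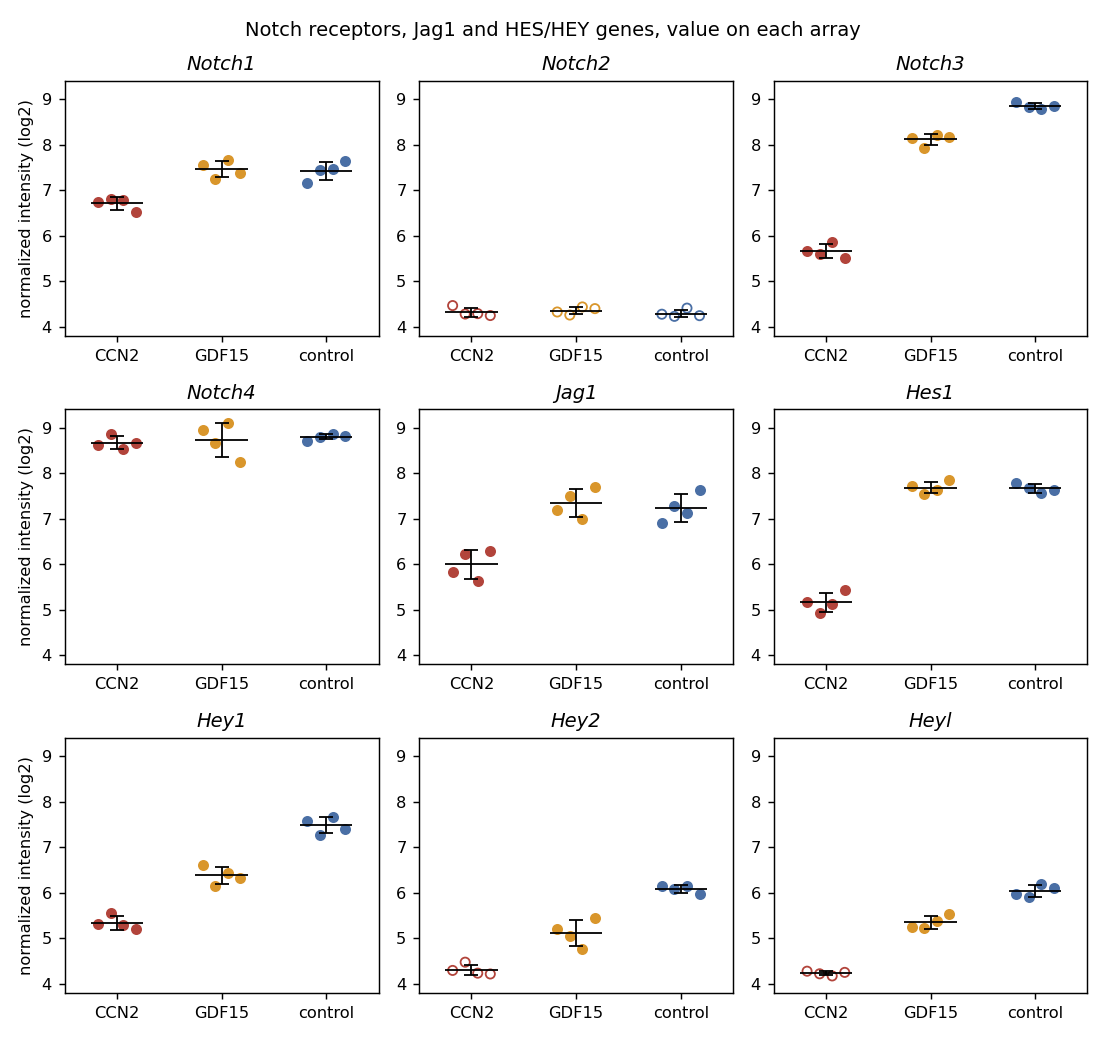
Normalized log2 intensity (vertical axes) of each member on the 4 CCN2, 4 GDF15 and 4 control arrays. Points are arrays, filled where the probe was detected and open where it was not, and black bars give the mean and SD; the CCN2 arrays lie below the control arrays for 7 members, Notch2 was detected nowhere, and the Notch4 groups overlap.

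Among the receptors, Notch3 moved most. Its signal before normalization (probe ILMN_2697380) was 68.6, 65.8, 73.7 and 62.0 on the CCN2 arrays, 275, 285, 329 and 363 on the GDF15 arrays, and 511, 531, 503 and 519 on the control arrays. The 3 groups were separate from each other, with CCN2 lowest and GDF15 between CCN2 and control. On the normalized log2 scale Notch3 differed from control by -3.20 after CCN2 (SE 0.093, limma adjusted p = 2.09e-14). After GDF15 it differed from control by -0.74 (SE 0.093, limma adjusted p = 1.53e-05). For each of these pairs the exact permutation p was 0.0286, the smallest that 4 against 4 arrays can give.

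Notch3 is a marker of smooth muscle cells and pericytes, and other markers of these cells were set beside it. Of 14 tested pericyte and smooth muscle markers, 12 fell after CCN2 and none rose, beside 30.2% of all tested genes that fell. Endothelial (12 of 13), macrophage (10 of 12) and fibroblast (8 of 13) markers fell after CCN2 as well. After GDF15, 6 of the 14 pericyte and smooth muscle markers fell, beside 12.7% of all tested genes. Tagln, an actin-binding protein of smooth muscle, rose. The summed normalized intensity of the 14 was 6890 to 7697 on the CCN2 arrays, 19630 to 22310 on the GDF15 arrays and 19410 to 22070 on the control arrays. The sum was thus lower after CCN2 and overlapped between GDF15 and control. Myh11, the smooth muscle myosin, had a log2 difference from control of -1.82 (SE 0.13) after CCN2 and -0.74 (SE 0.13) after GDF15. Pdlim3, a protein of actin anchoring sites, had -5.14 (SE 0.090) after CCN2 and -0.28 (SE 0.090) after GDF15, a call lost with median scaling (limma adjusted p = 0.122). Cnn1, a defining gene of smooth muscle, was detected on no array, and Rgs5 and Vtn were detected on no CCN2 array. The part of these cells in the Notch3 result was not tested. In bulk RNA, fewer cells of a type and less RNA per cell cannot be told apart.

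Notch1, the receptor with the broadest known expression, fell after CCN2. Its signals (probe ILMN_1241915) were 118, 114, 122 and 101 on the CCN2 arrays, 187, 185, 232 and 217 on the GDF15 arrays, and 164, 221, 217 and 244 on the control arrays. All CCN2 arrays lay below all control arrays, whereas the GDF15 and control arrays overlapped. The log2 difference from control was -0.71 after CCN2 (SE 0.11, limma adjusted p = 5.33e-05). After GDF15 it was 0.042 (95% confidence interval -0.20 to 0.28, limma adjusted p = 0.847).

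Notch4, a receptor known mainly from endothelium, passed in neither comparison. Its brighter probe, ILMN_1220697, read 380, 399, 361 and 375 on the CCN2 arrays, 460, 458, 593 and 381 on the GDF15 arrays, and 442, 520, 524 and 508 on the control arrays. Before normalization the CCN2 arrays lay below the control arrays, and after it the groups overlapped. The log2 difference from control was -0.14 after CCN2 (95% confidence interval -0.44 to 0.16, limma adjusted p = 0.452) and -0.067 after GDF15 (interval -0.37 to 0.23, limma adjusted p = 0.803). With median scaling the CCN2 difference was -0.38 and passed (limma adjusted p = 0.0136), beside the shift of -0.17 in all tested probes. A dimmer Notch4 probe, ILMN_1256134, detected on 2 CCN2, 3 GDF15 and 1 control array, passed in neither comparison.

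Endothelial markers were set beside Notch4. Of the 13 tested, 12 fell after CCN2 and none rose, beside 30.2% of all tested genes that fell. After GDF15 only the tight junction gene Cldn5 fell, beside 12.7% of all tested genes. The summed normalized intensity of the 13 was 2928 to 3095 on the CCN2 arrays, 4568 to 5535 on the GDF15 arrays and 5167 to 5607 on the control arrays. Cldn5 had a log2 difference from control of -1.57 (SE 0.11) after CCN2 and -0.46 (SE 0.11) after GDF15. Sox18, an endothelial transcription factor, had -1.41 (SE 0.10) after CCN2. Kdr, the main VEGF receptor of endothelium, was detected on no CCN2 or control array. The part of endothelial cells in the results for Notch1, Jag1 and the HEY genes was not tested.

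Notch2 could not be read. Neither of its 2 probes, ILMN_2678002 and ILMN_2980247, was detected on any array, with signals of 36.7 to 43.0 on the CCN2 arrays, 37.7 to 45.3 on the GDF15 arrays and 34.7 to 42.8 on the control arrays for the probe ILMN_2678002. Both probes were left out of the tests.

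Jag1, a membrane ligand that activates receptors on adjacent cells, fell after CCN2. Its probe ILMN_1257077 read 74.1, 85.3, 65.9 and 90.1 on the CCN2 arrays, 149, 212, 153 and 264 on the GDF15 arrays, and 140, 201, 175 and 244 on the control arrays. The CCN2 arrays were all below the control arrays, and GDF15 and control overlapped over most of their range. The log2 difference from control was -1.24 after CCN2 (SE 0.18, limma adjusted p = 1.59e-05). After GDF15 it was 0.11 (95% confidence interval -0.27 to 0.48, limma adjusted p = 0.747). Jag1 had the largest SE of the tested members, and in every group both arrays with even title numbers lay above both with odd ones.

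Hes1, the best known Notch target and a repressor of cell fate genes, fell after CCN2 and did not pass the test after GDF15. Its signals (probe ILMN_1247691) were 55.5, 52.5, 52.6 and 60.1 on the CCN2 arrays, 207, 220, 225 and 292 on the GDF15 arrays, and 243, 255, 232 and 242 on the control arrays. The CCN2 arrays stood far below the rest, and the GDF15 arrays overlapped the control arrays. The log2 difference from control was -2.50 after CCN2 (SE 0.10, limma adjusted p = 2.19e-12). After GDF15 it was 0.018 (95% confidence interval -0.20 to 0.24, limma adjusted p = 0.935).

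Hey1, a repressor that acts in vessels and heart cushions, fell after both treatments. Its probe ILMN_2690596 read 58.6, 64.5, 56.2 and 55.0 on the CCN2 arrays, 109, 99.2, 111 and 117 on the GDF15 arrays, and 214, 201, 245 and 212 on the control arrays. No 2 groups overlapped, and GDF15 lay between CCN2 and control. The log2 difference from control was -2.14 after CCN2 (SE 0.11, limma adjusted p = 5.38e-11). After GDF15 it was -1.10 (SE 0.11, limma adjusted p = 1.84e-06), the largest difference among the members in that comparison.

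Hey2, known for its role in ventricular muscle and arteries, had 2 probes that gave the same calls. The brighter probe, ILMN_2657207, read 38.9, 46.0, 34.7 and 35.3 on the CCN2 arrays, 54.5, 57.8, 50.7 and 73.7 on the GDF15 arrays, and 91.3, 99.5, 100.2 and 94.7 on the control arrays. It was detected on no CCN2 array and on all others, so after CCN2 only a bound can be given. Hey2 was at least 2.81-fold lower after CCN2 than in control (limma adjusted p = 1.12e-09), with measured log2 means of 4.31 in CCN2 and 6.09 in control cultures. After GDF15 the log2 difference was -0.97 (SE 0.12, limma adjusted p = 1.21e-05). The other probe, ILMN_2657210, gave at least 2.36-fold lower after CCN2 and a log2 difference of -0.89 (SE 0.11) after GDF15.

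Heyl, a family member known from smooth muscle and pericytes, followed the same order. Its probe ILMN_1213139 read 38.5, 39.5, 31.7 and 36.8 on the CCN2 arrays, 55.4, 62.4, 65.6 and 77.4 on the GDF15 arrays, and 83.2, 90.5, 103 and 101 on the control arrays. It was detected on no CCN2 array and on all others, and no 2 groups overlapped. Heyl was at least 2.73-fold lower after CCN2 than in control (limma adjusted p = 3.09e-11), with measured log2 means of 4.23 in CCN2 and 6.05 in control cultures. After GDF15 the log2 difference was -0.70 (SE 0.092, limma adjusted p = 2.82e-05). Hey2 and Heyl entered the tests through their GDF15 and control arrays. A bound is computed against the lowest detected signal of each CCN2 array, and means are over 4 arrays.

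**Figure D2:**
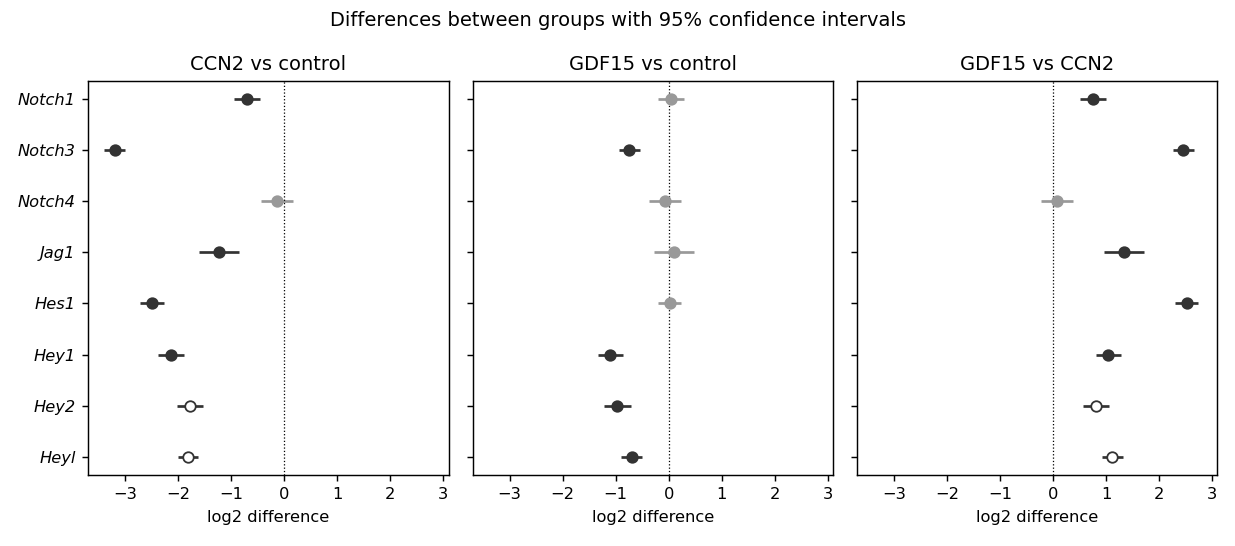
Log2 difference (horizontal axes) of the 8 tested members in the 3 comparisons, with 95% confidence intervals of the limma fit. Dark points passed the adjusted threshold, grey points did not, and open points mark genes undetected on the CCN2 arrays, whose difference is only bounded; Notch3 is at -3.20 for CCN2 and -0.74 for GDF15 against control.

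GDF15 against CCN2 tested whether the 2 treatments differ, at unlike doses. Of the 8 tested members, 7 were higher in GDF15 than in CCN2 cultures and Notch4 did not pass, beside 23.8% of all tested genes that were higher, 22% that were lower and 45.9% that differed. Hes1 was higher by 2.52 (SE 0.10, limma adjusted p = 4.23e-12) on the log2 scale and Notch3 by 2.46 (SE 0.093, limma adjusted p = 1.2e-12). Jag1 was higher by 1.34 (SE 0.18), Hey1 by 1.04 (SE 0.11) and Notch1 by 0.75 (SE 0.11). Heyl was at least 1.68-fold and Hey2 at least 1.43-fold higher, both being undetected on the CCN2 arrays. For Notch4 the difference was 0.069 (95% confidence interval -0.23 to 0.37). The share of differing probes that were higher after GDF15 was 49.9%, and 72.1% with median scaling, which left the members' calls as they were.

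These tests sort the members by the order of their levels. Notch3, Hey1, Hey2 and Heyl ran CCN2, GDF15, control from lowest to highest, and each neighbouring pair differed. Notch1, Jag1 and Hes1 were lowest after CCN2, and their GDF15 and control levels did not differ beyond the spread. Of the 10 tested member probes, 8 had CCN2 arrays that did not overlap the control arrays, beside 48.5% of all tested probes. These 8 include both Hey2 probes and the Heyl probe, which were detected on no CCN2 array. For GDF15 and control the number was 5 of 10, beside 22.8%, and for GDF15 and CCN2 it was 8 of 10, beside 37.2%.

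Other genes of the pathway gave a mixed picture. A list of 66 further genes by role had 60 with a probe and 47 tested. After CCN2, 18 of the 47 (38.3%) fell and 11 (23.4%) rose, beside 30.2% and 25.7% of all tested genes. After GDF15, 6 (12.8%) fell and 3 (6.38%) rose, beside 12.7% and 9.76% of all tested genes. With median scaling, 23 fell and 6 rose after CCN2, and 7 fell and 1 rose after GDF15. Another probe of the same gene gave a different call for 9 of the 47 after CCN2 and for 3 after GDF15. Their median log2 difference from control was -0.042 after CCN2 and 0.018 after GDF15, close to that of all tested genes.

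Among the other ligands, the endothelial Delta-like gene Dll4 was detected on no CCN2 array and was at least 1.06-fold lower than in control (limma adjusted p = 0.0173). Dll1 did not pass in either comparison, and Jag2 and Dll3 were too dim to test. Of 6 tested genes of reported non-canonical ligands, 5 fell after CCN2 and 3 after GDF15, beside 30.2% and 12.7% of all tested genes. Mfap2, a microfibril protein, had a log2 difference from control of -1.13 (SE 0.083) after CCN2 and -0.65 (SE 0.083) after GDF15. The other microfibril gene, Mfap5, had -0.49 (SE 0.091) after CCN2. Dner, a transmembrane protein of neurons, fell after GDF15, at -0.86 (SE 0.14), and was at -0.034 (SE 0.14) after CCN2. Ccn3, of the CCN family, was detected on no CCN2 array and was at least 1.27-fold lower there by its brighter probe, while its other probe was at -0.0026 (SE 0.11).

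Of 8 genes for receptor processing, Adam17 rose after CCN2 while the gamma-secretase subunit genes Aph1b and Psenen fell. Adam17, a protease that sheds many membrane proteins, had a log2 difference from control of 0.65 (SE 0.10) after CCN2 and 0.32 (SE 0.10) after GDF15. The GDF15 call was lost with median scaling (limma adjusted p = 0.157). Aph1b was at -0.86 (SE 0.10) and Psenen at -0.32 (SE 0.089) after CCN2. Adam10, Furin, Psen2, Ncstn and Aph1a passed in neither comparison by their brightest probes. Another Adam10 probe was lower after CCN2, at -0.20 (SE 0.076, limma adjusted p = 0.0399), and median scaling called Adam10 and Aph1a lower there.

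Mfng, a glycosyltransferase that modifies Notch receptors, fell after CCN2 by 1.45 on the log2 scale (SE 0.13, limma adjusted p = 4.38e-08). A dimmer Mfng probe was at -0.25 (SE 0.11) and did not pass. The ubiquitin ligases that drive ligand uptake split after CCN2, with Neurl1a at 0.51 (SE 0.082), Mib1 at 0.49 (SE 0.12) and Mib2 at -0.44 (SE 0.078). With median scaling the call of Mib1 was lost (limma adjusted p = 0.169). Mib2 fell after GDF15 too, at -0.33 (SE 0.078).

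Rbpj, the DNA-binding partner of the Notch intracellular part, rose after CCN2, where Hes1, Hey1, Hey2 and Heyl fell. Its log2 mean was 5.87 ± 0.13 in CCN2, 4.61 ± 0.29 in GDF15 and 4.55 ± 0.15 in control cultures (SD, n = 4 each). Detection held on 4 CCN2 arrays, 2 GDF15 arrays and 2 control arrays. The difference from control was 1.32 after CCN2 (SE 0.13, limma adjusted p = 1.17e-07). Maml2, a Mastermind co-activator, fell after CCN2 by 1.44 (SE 0.089, limma adjusted p = 4.11e-10), and its other probe fell by 0.82 (SE 0.13). The acetyltransferase Kat2b was at -0.74 (SE 0.11) and the co-repressor Spen at 0.73 (SE 0.12) after CCN2. After GDF15 none of the 10 tested genes of this group passed by limma with its brightest probe, and 1, the co-repressor Tle1, was lower at an unadjusted p under 0.05. Another Tle1 probe was lower after GDF15, at -0.31 (SE 0.10, limma adjusted p = 0.0453), and so was the brightest with median scaling (limma adjusted p = 0.0375).

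Nrarp, a feedback inhibitor that is itself a Notch target, fell with Hes1, Hey1, Hey2 and Heyl after CCN2. Its log2 mean was 5.50 ± 0.19 in CCN2, 7.12 ± 0.044 in GDF15 and 7.32 ± 0.11 in control cultures (SD, n = 4 each). The difference from control was -1.82 after CCN2 (SE 0.096, limma adjusted p = 5.09e-11), and -0.20 after GDF15 (SE 0.096, limma adjusted p = 0.161). Fbxw7, which marks the Notch intracellular part for breakdown, rose after GDF15 by 0.55 (SE 0.12) and after CCN2 by 0.35 (SE 0.12). Nle1 and Numbl rose after CCN2 by 0.48 (SE 0.095) and 0.47 (SE 0.12). Median scaling ended the CCN2 calls of Fbxw7, Nle1 and Numbl (limma adjusted p = 0.691, 0.177 and 0.123).

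Of 8 tested genes on the list of other reported targets, Nrarp among them, 5 fell and 2 rose after CCN2. Among all tested genes 30.2% fell and 25.7% rose there. Ccnd1, the cyclin of the early cell cycle, had a log2 difference from control of -2.93 (SE 0.094) after CCN2 and -0.76 (SE 0.094) after GDF15. Another Ccnd1 probe was at -0.19 after GDF15 and did not pass (limma adjusted p = 0.49). Sox9, a transcription factor of matrix-producing cells, had -1.86 (SE 0.088) after CCN2 and 0.20 (SE 0.088) after GDF15, where it did not pass. The cell cycle inhibitor Cdkn1a rose after CCN2, at 1.09 (SE 0.091), and so did Myc, at 0.97. Hes6 did not pass after CCN2, at -0.042, but median scaling called it lower there (limma adjusted p = 0.0386). After GDF15, 2 of the 8 fell, Ccnd1 and Hes6, and 0 rose, beside 12.7% and 9.76% of all tested genes. Hes6 was at -0.37 after GDF15 (limma adjusted p = 0.0254), while another of its probes did not pass (limma adjusted p = 0.371). Hes5, Hes7, Dtx1, Gata3, Ptcra and Il2ra were too dim to test.

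**Figure D3:**
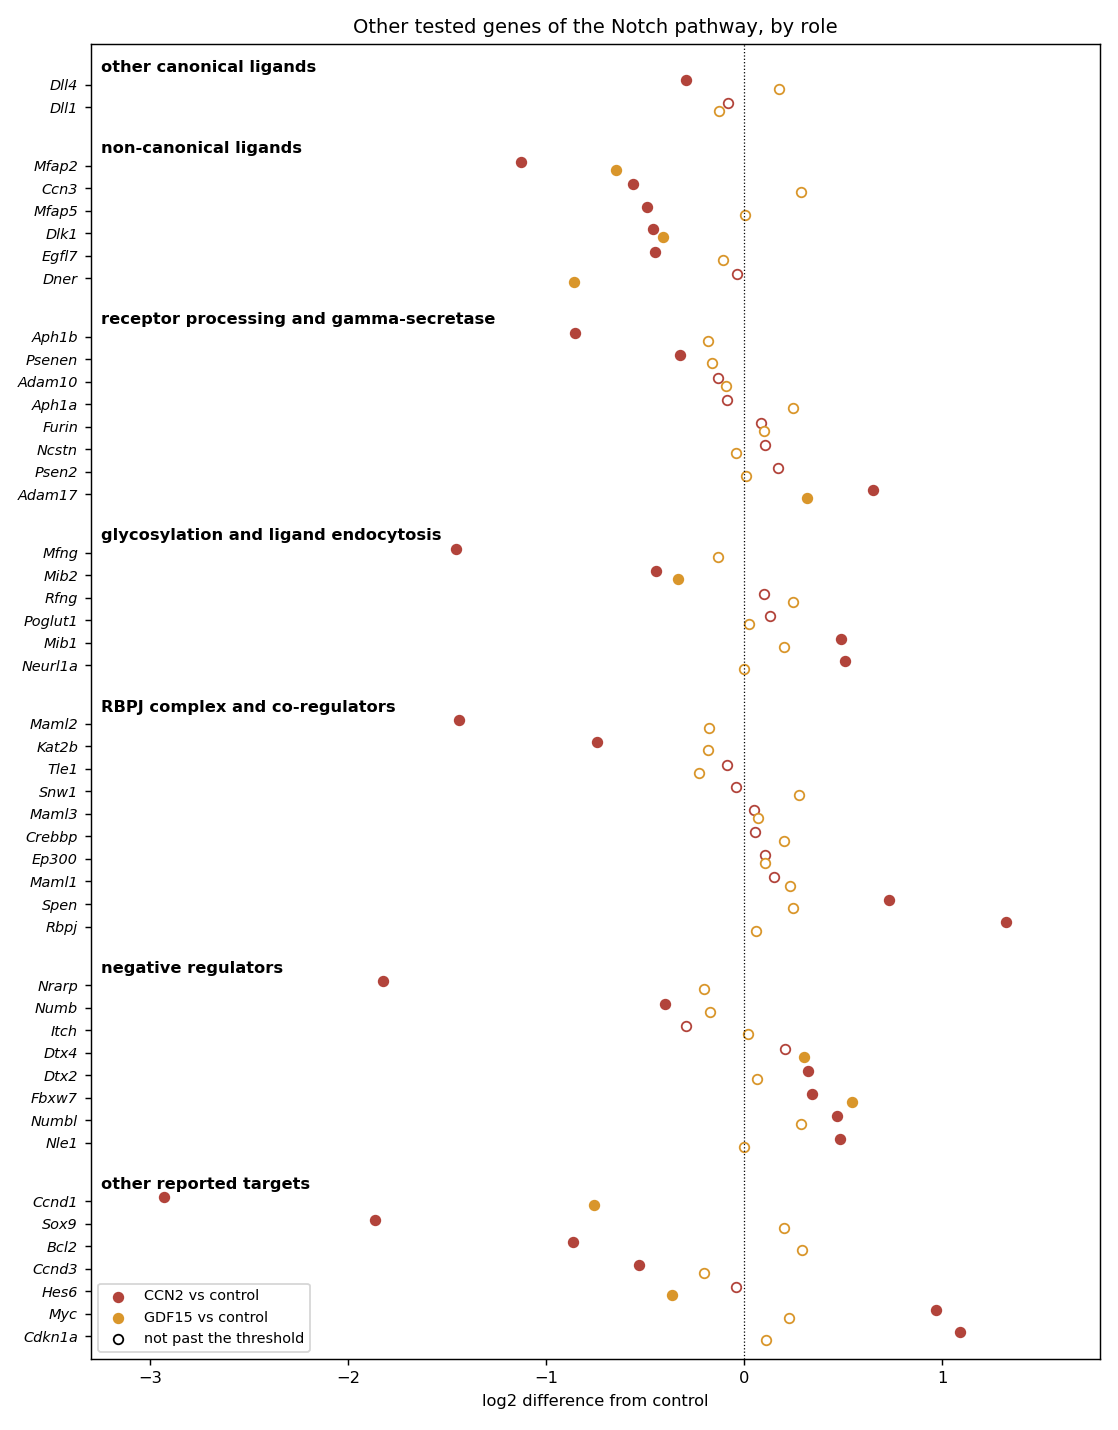
Log2 difference from control (horizontal axis) of the 47 other tested genes of the Notch pathway, grouped by role, after CCN2 and after GDF15. Filled points passed the adjusted threshold and open points did not, Nrarp is drawn among the negative regulators, and Dll4 and Ccn3 were detected on no CCN2 array; Nrarp at -1.82 and Rbpj at 1.32 lie on opposite sides after CCN2.

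HEY genes are also known as targets of BMP signalling, so a list of BMP SMAD targets was set beside them. Of its 6 tested genes, 5 fell and Id2 rose after CCN2, beside 30.2% and 25.7% of all tested genes. The rise of Id2 was ended by median scaling (limma adjusted p = 0.0975). Smad7, Smad9, Bambi and Grem1 were too dim to test. By its brightest probe, Id4 was detected on no CCN2 array and was at least 6.03-fold lower than in control. Another Id4 probe differed less, by -1.05 on the log2 scale (SE 0.10). Smad6, an inhibitor of BMP signals, was at -2.36 (SE 0.11), Id1 at -1.48 (SE 0.088) and Atoh8 at -1.32 (SE 0.13). After GDF15 none of the 6 passed by limma with its brightest probe, and at an unadjusted p under 0.05 1 was higher and 1 lower. Another Id2 probe rose after GDF15, by 0.56 (SE 0.13, limma adjusted p = 0.00433), and Id1 was at 0.23 (SE 0.088, limma adjusted p = 0.0835). The part of BMP signalling in the results for the HEY genes was not tested.

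Markers of other cells moved as well, beside 30.2% of all tested genes that fell after CCN2 and 12.7% after GDF15. Of 12 tested macrophage markers, 10 fell after CCN2 and none rose, and after GDF15, 7 fell and 1 rose, by the brightest probe of each. Both other probes of Adgre1 rose after CCN2, by 0.30 and 0.31, and another Lyz2 probe rose after GDF15, by 0.52. Their summed normalized intensity was 9701 to 10840 on the CCN2 arrays, 27200 to 29420 on the GDF15 arrays and 31590 to 35240 on the control arrays, the same order as for Notch3 and the HEY genes. C1qc, a complement chain of macrophages, had a log2 difference from control of -5.10 (SE 0.098) after CCN2 and -1.65 (SE 0.098) after GDF15, and C1qb, another chain, had -4.81 (SE 0.084) and -1.35 (SE 0.084). Cd163 was detected on no CCN2 array. Of the 13 fibroblast markers, 8 fell after CCN2, or 7 with median scaling, 3 fell after GDF15 and none rose by its brightest probe, with sums of 46420 to 48520 on the CCN2 arrays, 56290 to 64830 on the GDF15 arrays and 60750 to 65210 on the control arrays. Tcf21, a transcription factor of cardiac fibroblasts, had -2.69 (SE 0.099) after CCN2 and 0.031 (SE 0.099) after GDF15, while the matrix gene Dpt had -2.31 (SE 0.11) and -1.30 (SE 0.11). Fn1, for fibronectin, had probes with opposite calls after CCN2, and another of its probes rose after GDF15, by 0.53 (SE 0.12). For Dcn, the matrix gene of decorin, 3 other probes rose after CCN2, by 0.24 to 1.30. The part of these cells in the members' results was not tested.

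The genes whose pattern was most like that of a member were found by the root mean square difference of centred log2 values over the 12 arrays, among 10739 genes. For Notch3 these were the collagen gene Col14a1, at 0.085, and Dkk3, a secreted glycoprotein of the Dickkopf family, at 0.14, beside a spread of 1.37 in Notch3 itself. For Hes1 they were the caveolar gene Cavin2, at 0.14, and the myosin light chain Myl9, at 0.17. For Hey1 they were Smagp, at 0.16, and Cyth4, at 0.16, and for Hey2 they were Rgs10, at 0.13, and Atp1b2, at 0.14. For Heyl they were the RNA-editing enzyme Apobec1, at 0.089, and Ehd4, at 0.092. For Jag1 they were Anxa1, at 0.17, and Pkig, at 0.20, and for Notch1 they were Idua, at 0.12, and Tcf7l2, at 0.12. For Notch4, whose own spread was 0.21, they were Rfx1, at 0.099, and Ptdss2, at 0.11. The 12 points share their 3 groups of 4 arrays, and the measure is a description with no test. For Hey2 and Heyl, detected on no CCN2 array, the points of those arrays are undetected levels.

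**Figure D4:**
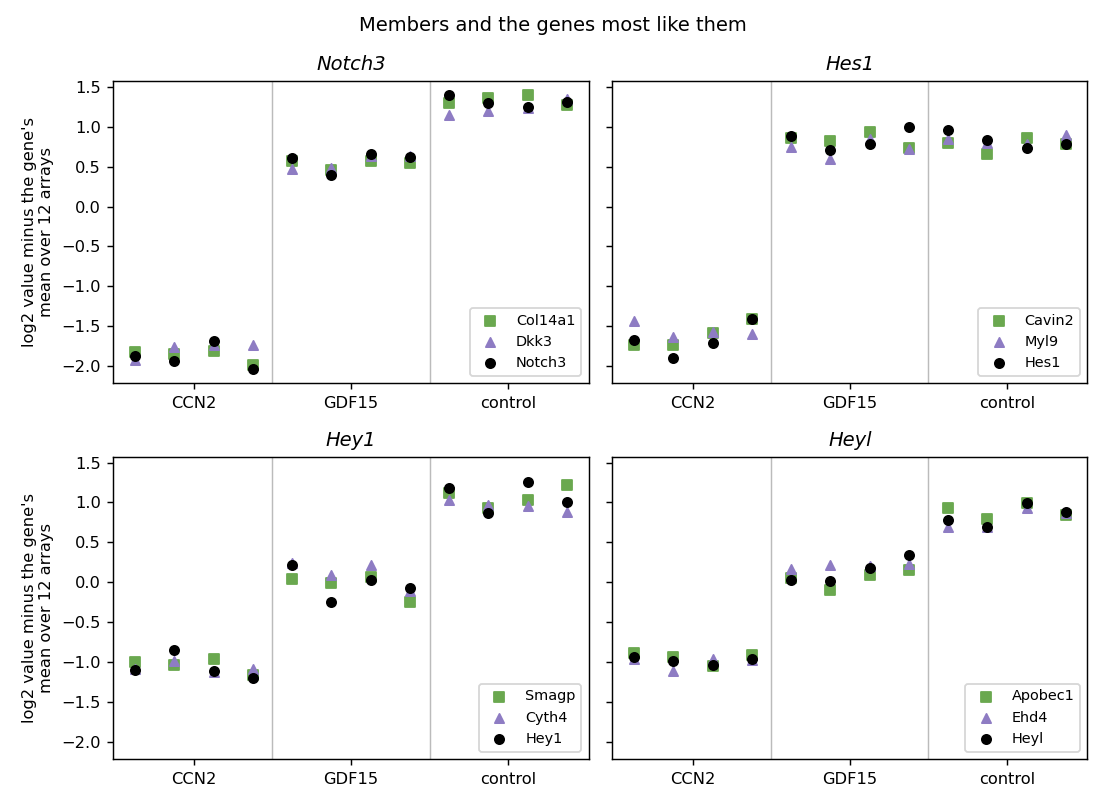
Log2 value minus the gene's own mean over 12 arrays (vertical axes) for Notch3, Hes1, Hey1 and Heyl and the pair of genes most like each, on the CCN2, GDF15 and control arrays. Each point is 1 array, and Heyl was detected on no CCN2 array. Col14a1 tracks Notch3 with a root mean square difference of 0.085.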

How the data were processed

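Per the file headers, the authors deposited values before normalization, with 1 intensity and 1 detection p-value per probe on every array. The intensities come from GenomeStudio 2010.1, per the submitters' processing notes. The authors' processed intensities, in another deposited table, are quantile-normalized, as their equal distributions show; their tool is not given in the sources used here. The members and gene lists were chosen with earlier results of these data known.

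Intensities were corrected with normexp, quantile-normalized and put on a log2 scale with an offset of 16 (neqc, limma 3.58.1, R 4.3.3), which shrinks changes of dim probes. The 20445 probes detected (p under 0.05) on at least 4 of 12 arrays were fitted with lmFit and eBayes on 3 group means, 9 residual degrees of freedom. The code was tested on simulated data. Tests were two-sided, with Benjamini-Hochberg adjustment over all tested probes and a threshold of 0.05. Permutation tests were exact. Samples were grouped by title.

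Of the 45281 probes, 34885 had 1 gene symbol, 18 several and 10378 none. The gene table (GRCm38.p6) held the gene ID of 34807 and changed no symbol. The tested probe with the highest mean represents a gene. All members were named. From each pathway list up to 4 genes, and from each marker list up to 2, with the largest difference from control among those past the threshold were named, and for each tested member the 2 most similar genes. Other genes were named after their values were seen. Cardiomyocyte markers (4 tested) fell in 4 after CCN2 and by limma in 0 after GDF15 (2 at an unadjusted p under 0.05 and 2, Nppa and Myl2, with median scaling), led by Nppa at -1.85 and Myl2 at -0.85. These calls are by the brightest probe, and other probes of Actc1 and Actn2 did not pass after CCN2 (limma adjusted p = 0.0524 and 0.489). Of 6 epicardial and mesothelial markers, 4 rose and 2 fell after CCN2, or 3 and 2 with median scaling (Aldh1a2 at 2.56, Upk3b at -1.34), and 2 rose after GDF15. Among those called after CCN2, Krt19 was detected on no GDF15 or control array and Lrrn4 on no CCN2 array. Each entered the tests only through its other arrays, which favours a rise of Krt19 and a fall of Lrrn4. Among all tested genes 30.2% fell and 25.7% rose after CCN2, and 12.7% fell and 9.76% rose after GDF15. Alternatives were the authors' processed values, median scaling, detection filters, the 8 arrays compared, an offset of 50, array weights and leaving out each array.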

Additional observations from a re-analysis of the deposited data

Results flagged for a closer look

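The dimmer Notch4 probe read 4.82 on the log2 scale on control replicate 4, whose signal was 55.6, while the other 3 control arrays lay between 4.40 and 4.46. The gap to the nearest array was 0.848 of the range, above Dixon's 95% critical value for 4 arrays. Of 30 groups of arrays examined, 10 member probes in 3 groups, this was the 1 so marked, and chance alone marks about 1 in 20.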

How the results depend on the processing

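No paired analysis was possible because the titles number the arrays through all groups and no number is shared between groups. For the 10 tested member probes, all 360 values with 1 array left out kept their side of the threshold and their called direction. Of 237 values under the other alternatives, 236 did so too, the exception being Notch4 after CCN2 with median scaling, at -0.38. The number of called probes with 1 array left out was 9729 to 10860 for CCN2 against control, 3222 to 4108 for GDF15 against control and 7832 to 8561 for GDF15 against CCN2. The dimmer Notch4 probe could not be fitted with detection p under 0.01. Without the detection filter they were 10279, 3704 and 8237. Brightness limits Notch2 and the CCN2 values of Hey2 and Heyl.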

Other observations

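The odd and even title numbers were fitted as a block, an alternative chosen after seeing the data. The SE of the Jag1 difference was then 0.099, against 0.18 without it, with a CCN2 difference from control of -1.24 (limma adjusted p = 9.59e-09) and a GDF15 difference of 0.11 (limma adjusted p = 0.507). The labels do not say what the title numbers stand for.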
